A study of Mus musculus with 2 samples.

Results

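The plasma carrier protein genes examined in cultured mouse hepatoblasts were Rbp4, Ttr, Gc, Alb, Hpx, Hp, Ambp, Orm1, Ahsg and Fetub. A gene was taken where the array's own annotation gave a non-control probe that name, which found 10 probes, 1 per gene and 1 spot each, among 41174 gene probes for 20060 named genes. The probes lacked any repeat spot, so each gene had 1 reading at each passage. The cells were expandable hepatoblasts, liver progenitor cells of C57BL/6 mice, and were sampled at passage 20 (P20, 1 array) and at passage 5 (P5, 1 array). Both cultures grew in a defined medium with epidermal growth factor, the GSK3 inhibitor CHIR99021, the TGF-beta receptor inhibitor E-616452, lysophosphatidic acid and sphingosine 1-phosphate, with insulin, transferrin, selenite, nicotinamide, a vitamin C derivative and added albumin protein, on Matrigel or laminin. Per the labels the 2 passages came from independent experiments, so passage and experiment cannot be told apart, and with 1 array each no test of a difference was possible. The label does not say on which coating either culture grew, or how many animals it came from.

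Plasma carriers are secreted mainly by hepatocytes and move water-insoluble or toxic cargo through blood. Albumin (Alb) binds fatty acids, bilirubin and metals, and its transcript is a standard mark of hepatocyte differentiation that starts in the fetal hepatoblast. Retinol-binding protein (Rbp4) and transthyretin (Ttr) travel together with retinol and thyroxine, vitamin D-binding protein (Gc) carries vitamin D and free actin, and haptoglobin (Hp) and hemopexin (Hpx) capture haemoglobin and haem. Ambp encodes a precursor that is cut into the lipocalin alpha-1-microglobulin and the protease inhibitor bikunin. Orosomucoid (Orm1) is a drug-binding acute-phase lipocalin, and Ahsg and Fetub encode fetuins, relatives of the cystatins that restrain mineral deposition (Ahsg) and an ovastacin-type protease (Fetub).

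Each value rests on 1 probe of 60 bases, and the probes below are shown because they define which transcript stretch was read. These 6 had at least 1 forward reading frame without a stop codon, and no base is capitalised since no part is singled out. They are written 5′ to 3′ as the array files give them, with coordinates in build mm9.
Alb, chr5:90901598-90901657, plus strand: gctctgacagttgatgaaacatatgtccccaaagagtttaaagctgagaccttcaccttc
Gc, chr5:89864029-89864558, minus strand: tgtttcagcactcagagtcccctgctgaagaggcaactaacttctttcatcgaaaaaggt
Hpx, chr7:112740304-112740363, minus strand: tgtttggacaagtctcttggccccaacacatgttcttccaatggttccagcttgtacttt
Hp, chr8:112099172-112099231, minus strand: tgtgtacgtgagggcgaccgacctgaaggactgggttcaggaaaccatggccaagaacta
Orm1, chr4:63006483-63007090, plus strand: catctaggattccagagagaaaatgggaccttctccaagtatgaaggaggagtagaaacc
Fetub, chr16:22939736-22939795, plus strand: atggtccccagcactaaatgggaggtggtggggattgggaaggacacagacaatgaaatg
The probe of Gc covers 530 bases of the genome and that of Orm1 covers 608, so both read across at least 1 exon junction. The probe of Ambp (chromosome 4, 62804386 to 62804711, minus strand) covers 326 bases and does so too. The probe of Rbp4 lies at chromosome 19, 38191129 to 38191188, and that of Ahsg at chromosome 16, 22899415 to 22899474. GC content ran from 38.3% to 55.0% over the 10 probes. It covered that same range among the probes well above background on both arrays and among those on neither.

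Both arrays lay on 1 slide and had the same scan time. The scanner software called 18969 gene probes (46.1%) well above background at P20 and 18738 (45.5%) at P5, and no gene spot was saturated. Signals are given below as the scanner software's processed intensities with the software's own error for 1 spot, and differences as log2 of P20 over P5 after each array was scaled to its 75th percentile (signals of 853 at P20 and 1085 at P5). The number of arrays limits the precision. On 91 probes with 10 spots above background, repeat spots had a median SD of 0.06 log2 at P20 and 0.05 log2 at P5, which leaves out the variation between cultures. In bulk RNA, fewer cells that express a gene and less RNA per cell cannot be told apart.

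The carriers fell into those with a clear signal at both passages and those near background at both. Rbp4, Gc, Hpx and Ambp (4 of 10) were well above background on both arrays, Fetub at P5 only, and Alb, Ttr, Hp, Orm1 and Ahsg (5 of 10) on neither. Of 20054 named genes, 53.6% were well above background on both arrays and 58.8% on at least 1, so the share of detected carriers was not high for the array. Among the 5 measured carriers, 1 was at least 2-fold lower at P20 (Ambp), against 5.74% of 11798 measured genes, and 0 were at least 2-fold higher, against 3.26%. The median difference was -0.26 log2 over the 5 measured carriers and 0.07 over all measured genes. The carrier median is the value of Fetub, a bound set by the lowest detected value at P20, and not a measured difference. The 4 carriers detected on both arrays were at 0.57 (Gc), 0.52 (Rbp4), -0.62 (Hpx) and -3.41 log2 (Ambp). The split of all 2-fold calls depended on the scaling: 36.3% were higher at P20 here, 14.6% with median centring, 24.1% with cyclic loess and 19.5% with spike-in scaling.

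**Figure D1:**
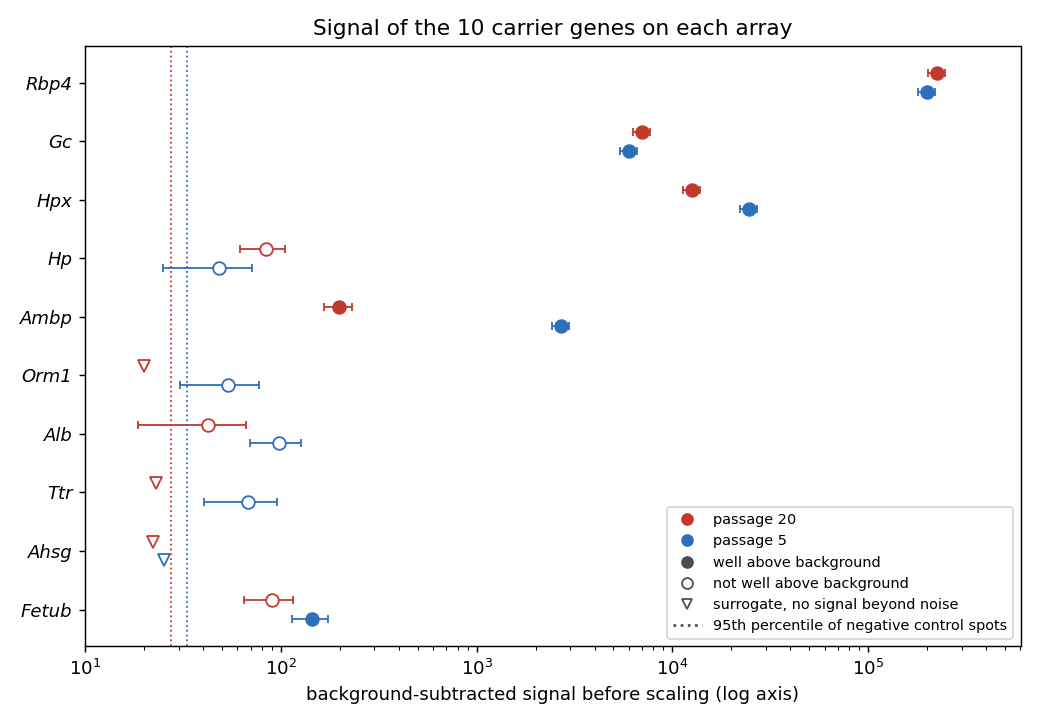
Signal of each carrier gene before scaling (horizontal log axis), with the P20 point drawn in the upper position of each gene's row and the P5 point in the lower. Bars are the software's error of the single spot, filled points are spots well above background, and triangles are surrogate values given where no signal exceeded noise. Rbp4, Gc, Hpx and Ambp are filled at both passages, while Alb, Ttr, Hp, Orm1 and Ahsg are open at both.

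The retinol carrier was present at both passages, while its plasma partner was not detected. Rbp4 had a signal of 224551 ± 22455 at P20 and 198884 ± 19888 at P5. Before scaling the P20 reading was 1.13-fold the P5 reading, and the scaled difference was 0.52 ± 0.20 log2 (software error of both spots). This is under 2-fold. On both arrays the Rbp4 spot was read from the low-gain scan and scaled up, which the software does for bright spots. Ttr gave 23.1 at P20, a surrogate value written where no signal exceeds noise, and 67.9 ± 27.3 at P5. Neither reading was well above background, so no fold is given; at P5 the spot was positive and significant by the software's weaker flag, and 3 of 153 negative control spots were as bright or brighter. Stra6, the membrane receptor for retinol-loaded Rbp4, had 206 at P20 and 168 at P5 (0.64 log2). Rdh10, which oxidises retinol, had 40162 at P20 and 31929 at P5, with its 3 probes from 0.37 to 0.85 log2. Lrat, which stores retinol as ester, was below the detection mark at both passages.

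Of the albumin family, the vitamin D carrier and the fetal member were detected and albumin was not. Gc had a signal of 6970 ± 697 at P20 and 5986 ± 599 at P5. The difference of 0.57 ± 0.20 log2 was under 2-fold, and before scaling the P20 reading was 1.16-fold the P5 reading. Alb had 42.5 ± 23.8 at P20 and 98.1 ± 28.6 at P5. Neither Alb reading was well above background, and both were positive and significant by the weaker flag. Among the 153 negative control spots, 5 at P20 and 3 at P5 were at or above the Alb signal. The median of these control spots was 21.9 at P20 and 24.8 at P5. Afp, the fetal relative of albumin, was read by 10 spots with a mean of 5321 ± 247 at P20 and 6353 ± 250 at P5 (SD over spots of 1 array). Its difference after scaling was 0.09 ± 0.03 log2 (SD over the 10 spot pairs). Afm, the vitamin E-binding relative, stayed below that mark on both, with 42.1 at P20 and 54.3 at P5. Vdr, the vitamin D receptor, had 191 at P20 and 333 at P5 (-0.45 log2). Its target Cyp24a1 was not well above background at either passage. Fcgrt, the receptor that returns albumin to the blood, and the albumin uptake receptors Lrp2 and Cubn were likewise below that mark on both arrays.

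The haem carrier was detected and the haemoglobin carrier was near background. Hpx had a signal of 12623 ± 1263 at P20 and 24663 ± 2466 at P5. The difference was -0.62 ± 0.20 log2, a 1.54-fold lower value at P20, which passed 1.5-fold and not 2-fold. The 2 readings of Hpx came from different scanner gains: the P5 spot was read at low gain and scaled up, and the P20 spot was not. The 225 genes with that pattern had a median difference of -0.17 log2, 20 of them 2-fold lower and 0 higher. The 30 genes with the reverse pattern had a median of 0.78 log2, 0 of them lower and 6 higher. Low gain is used for bright spots, so each group was picked for its brighter array. These medians therefore cannot show an effect of the gain, and its part in the Hpx value was not tested. Hp had 83.5 ± 21.9 at P20 and 48.1 ± 23.0 at P5, both positive and significant by the weaker flag, with 1 and 4 negative control spots at or above it at P20 and P5. No fold is given for it. Hmox1, which breaks down haem, had 1713 at P20 and 6508 at P5 (-1.58 log2, with its other probe below background). Hmox2, the constitutive form, differed by 0.04 log2. Lrp1, a receptor for haem-loaded hemopexin, differed by -0.16 log2 (1039 at P20 and 1481 at P5), and Cd163, the macrophage receptor for haptoglobin-haemoglobin, was not well above background. The iron store genes Ftl1 and Fth1 differed by -0.50 and -0.07 log2.

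Ambp had the one difference above 2-fold among the carriers. Its signal was 199 ± 32.2 at P20 and 2691 ± 271 at P5, both well above background. At P20, 1 of 153 negative control spots was at or above it, and at P5 none was. The difference was -3.41 ± 0.27 log2, or 10.6-fold lower at P20, and it stayed between 10.6-fold and 13.2-fold under 11 of 12 other ways of processing. With normexp background correction, which adds an offset to all spots, it was 6.06-fold. Orm1, another lipocalin, had 19.9 at P20, a surrogate value, and 53.7 ± 23.3 at P5, with neither reading well above background. The other lipocalins Orm2, Orm3, Lcn2, Apod, Ptgds, Apom and C8g were below that mark on both arrays too, so Ambp and Rbp4 were the 2 of 10 lipocalin genes with a measured value.

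Both fetuin genes were close to background. Fetub had 90.2 ± 25.6 at P20 and 144 ± 30.8 at P5, and only the P5 reading was well above background. Set against the lowest detected value at P20, Fetub was 1.20-fold lower, a bound that leaves out the software's error. With normexp background correction the bound was 0 log2. Ahsg had surrogate values on both arrays, 22.3 at P20 and 25.2 at P5, and 65 of 153 negative control spots at P20 and 66 at P5 were at or above it. The histidine-rich relative Hrg was well above background at P5 only, at 52.5 at P20 and 185 at P5 (a bound of -0.62 log2). Of the cystatins, Cst3, a secreted protease inhibitor, differed by -0.25 log2 and Cstb by 0.36, while Cst6 had 98.3 at P20 and 292 at P5 (a bound of -1.23 log2), with its other probe below background.

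**Figure D2:**
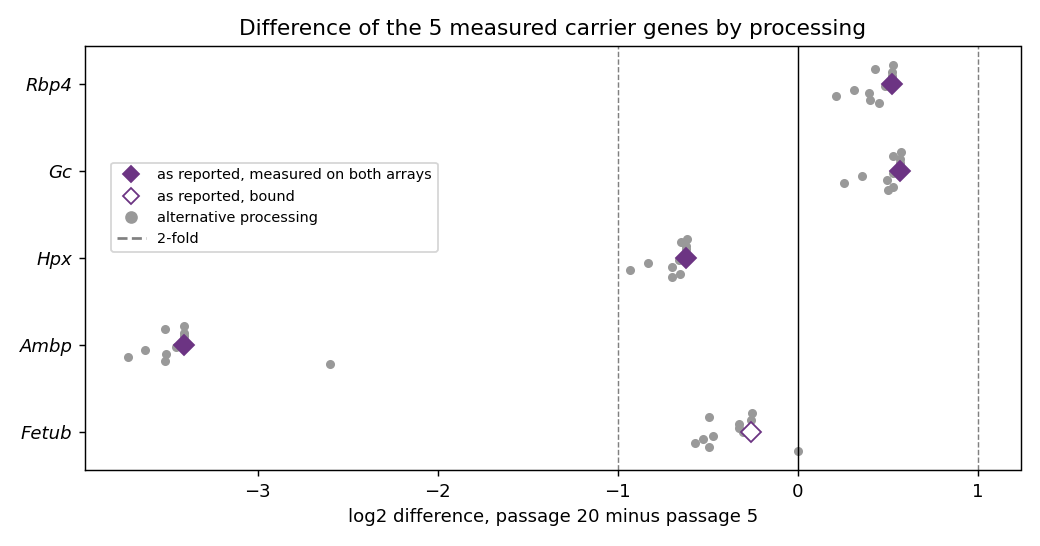
Log2 difference, P20 minus P5, of the 5 measured carrier genes; diamonds are the reported values (open for the Fetub bound), grey points the alternative ways of processing, dashed lines 2-fold. Rbp4 and Gc stay above 0 and Hpx between -0.93 and -0.62, while Ambp lies at -2.60 with normexp and at -3.41 or lower under most others.

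Several carriers are chromosomal neighbours, and detection differed between neighbours. In the mm9 positions of the files the Alb and Afp probes are 36.2 kb apart on chromosome 5, with no protein-coding gene starting between them in the RefSeq table of GRCm38.p6, and Afm follows Afp directly. Afp was measured at both passages while Alb and Afm were not. The probe of Gc lies 1038 kb from that of Alb on the same chromosome. On chromosome 16 the Ahsg and Fetub probes are 40.3 kb apart and Hrg is the next gene; Fetub and Hrg were detected at P5 only and Ahsg on neither array. On chromosome 4 the probes of Ambp and Orm1 are 202 kb apart, and Orm3 and Orm2 lie 12.4 and 18.5 kb from Orm1. Ambp was measured at both passages and all 3 Orm genes at neither.

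**Figure D3:**
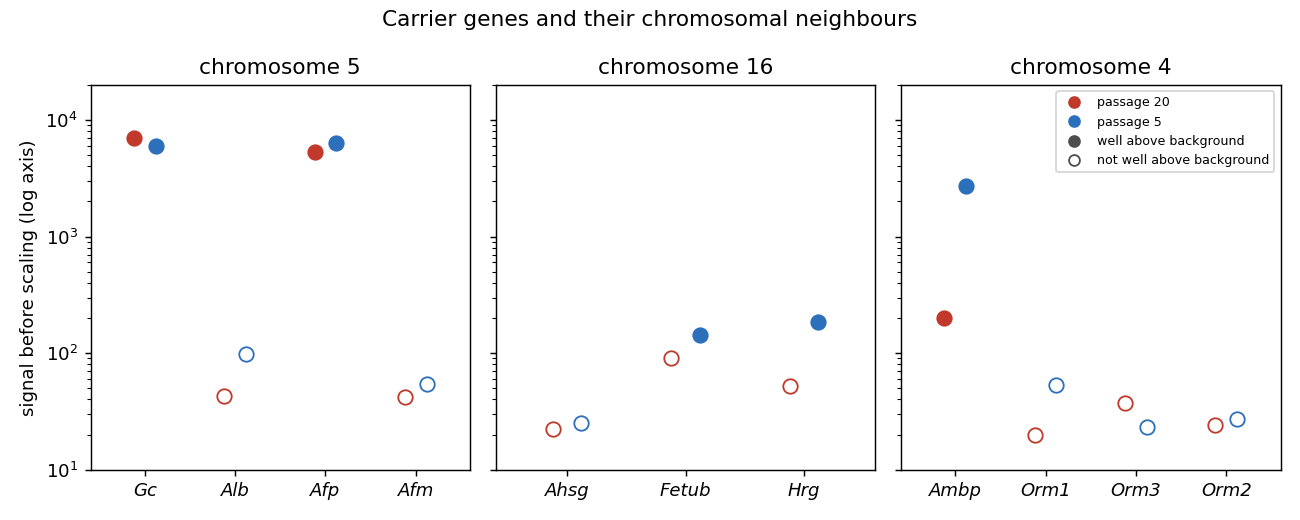
Signal before scaling (log axis) of carrier genes and their neighbours in chromosomal order, P20 left of P5, filled where well above background. On chromosome 5 Gc and Afp are filled at both passages and Alb and Afm at neither; on chromosome 4 only Ambp is filled.

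Upstream sequences are shown for 3 carriers with different detection: Alb (neither array), its relative Gc (both arrays) and Ambp (lower at P20). RefSeq (GRCm38.p6) promoters were found for 7 of the 10 genes, and the 250 bases before the start site were searched on both strands for 6 motifs, whose matches are in capitals. The NF1 half-site was searched as TTGGCA. The forkhead motif of FOXA factors was searched as TGTTTGC. For C/EBP and PAR-bZIP factors the letters were TTNNGNAA, and for HNF4 they were AAAGTCCA. The CCAAT box was searched by its own letters. The TATA box was searched as TATAAA. Matches may overlap, and the TTNNGNAA matches can contain other motifs.
Alb, chr5:90460620-90460869, plus strand: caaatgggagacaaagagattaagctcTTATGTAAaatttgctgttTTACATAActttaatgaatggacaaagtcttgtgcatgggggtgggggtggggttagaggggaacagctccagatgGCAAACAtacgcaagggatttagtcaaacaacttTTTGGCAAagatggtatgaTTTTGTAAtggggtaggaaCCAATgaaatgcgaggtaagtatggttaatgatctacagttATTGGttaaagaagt
Gc, chr5:89457899-89458148, minus strand: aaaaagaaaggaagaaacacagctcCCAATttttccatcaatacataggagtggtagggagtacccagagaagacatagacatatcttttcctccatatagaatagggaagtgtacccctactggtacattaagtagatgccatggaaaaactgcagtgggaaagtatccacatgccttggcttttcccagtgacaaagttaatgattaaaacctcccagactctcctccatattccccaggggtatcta
Ambp, chr4:63154173-63154422, minus strand: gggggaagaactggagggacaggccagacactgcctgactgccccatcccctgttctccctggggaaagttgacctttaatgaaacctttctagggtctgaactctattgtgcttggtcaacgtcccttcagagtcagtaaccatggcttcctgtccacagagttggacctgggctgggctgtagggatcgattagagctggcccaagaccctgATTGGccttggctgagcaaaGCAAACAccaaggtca
The Alb window held 4 TTNNGNAA matches (a motif in 36.8% of 32851 promoters), a FOXA match (4.30%), an NF1 half-site (12.3%) and 2 CCAAT matches (33.8%). The Gc window held 1 CCAAT match, at -225. The Ambp window held a FOXA match at -16 and a CCAAT match at -36, and none of the 3 windows held TATAAA (12.4%) or AAAGTCCA (1.01%). A match describes letters in the window and is not a bound site.

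Most genes for liver transcription factors were measured at both passages, with some defining ones near background. Of 35 such factors and interleukin-6 signal genes, 25 were measured, against 58.8% of all named genes, with a median of -0.18 log2. At the 2-fold threshold 1 of the 25 was higher and 2 were lower, against 3.26% and 5.74% of all measured genes. The highest after Prox1 included Xbp1 (0.64 log2) and Il1r1 (0.51). Foxa2, a pioneer factor of endoderm, had 20095 at P20 and 27618 at P5 (-0.11 log2). Hnf4a had 3478 at P20 and 5113 at P5, and its 3 probes ran from -0.21 to 0.52 log2. Cebpa, a C/EBP factor of mature hepatocytes, had 22.5 at P20 and 25.3 at P5, below the detection mark at both passages, as were Foxa1 and Foxa3. Dbp, a circadian factor named for the albumin D site, had 2013 at P20 and 4876 at P5 (-0.93 log2). The acute-phase factor genes Cebpb and Cebpd differed by -0.06 and -0.71 log2.

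In the same list, Prox1, a factor of hepatoblast migration, had 200 at P20 and 126 at P5 and was 2.02-fold higher. This call was lost under 7 of 12 alternatives, among them quantile normalization and the authors' log2 table, and its other 2 probes were below background. Socs3, the feedback inhibitor of interleukin-6 signalling, was lower at 7006 at P20 and 34399 at P5 (-1.95 log2), but its other probe gave 0.22, and the mean over both probes was -0.86, short of 2-fold. Creb3l3, a liver factor of the acute-phase response, had 54.8 at P20 and 429 at P5 and was above background at P5 only (a bound of -1.83 log2). Stat3, which carries the interleukin-6 signal, differed by -0.18 log2 (12914.5 at P20 and 18569.7 at P5), while the interleukin-6 receptor gene Il6ra was not well above background.

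Other plasma protein genes split in both directions, and most were not detected. Of 89 genes 86 were on the array under the listed symbol. Of these 25 were measured, against 58.8% of all named genes, and 61 were above background on neither array. Past the 2-fold threshold, 4 of the 25 lay above and 6 below, against 3.26% and 5.74% of all measured genes. The median was -0.33 log2, which is the bound of a gene detected at P5 only. The clotting gene Fgb had 4710.3 at P20 and 1538 at P5 (1.96 log2), while the other fibrinogen chain genes Fga and Fgg were above background on neither array. The thrombin inhibitor gene Serpinc1 had 361 at P20 and 194 at P5 (1.24 log2, with its other probe below background). Cp, the copper carrier ceruloplasmin, had 50353 at P20 and 30338 at P5 (1.08 log2, and 0.62 by its other probe). Apob, the structural protein of lipoproteins, had 14669 at P20 and 8985 at P5, with its 5 probes from 0.89 to 1.14 log2. The calls of Cp and Apob were lost under 6 and 5 of 12 alternatives, among them median centring and cyclic loess, and that of Serpinc1 with median centring (0.93 log2).

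Among the lower ones, Serpina1d of the alpha-1-antitrypsin cluster had 382 at P20 and 2612 at P5 (-2.43 log2), and its near-identical relatives may share this signal. Agt, the angiotensin precursor, had 508 at P20 and 2588 at P5, with a difference between -2.31 and -1.71 log2 over 12 alternatives. Apoe had 261 at P20 and 1309.6 at P5 (-1.98 log2), and the anticoagulant gene Proc had 376 at P20 and 1576 at P5 (-1.72 log2). The iron carrier Trf had 16968 at P20 and 42229.9 at P5 (-0.97 log2), just inside 2-fold.

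Of 42 genes for receptors, storage and partners of the carriers, 25 were measured, against 58.8% of all named genes, with a median of -0.07 log2. Of the 25, 1 passed 2-fold upward and 2 downward, against 3.26% and 5.74% of all measured genes. Median centring gave 0 upward and 5 downward. The lower ones included Hmox1, given above. Short of 2-fold were Rbp2 (-0.86 log2, and -0.45 by its other probe) and the metalloproteinase gene Bmp1 (-0.82, but 0.20 by its other probe). Tfrc, the transferrin receptor, was at 0.76 log2. Tlr4, a receptor for bacterial lipopolysaccharide to which fetuin-A can bind, had 336 at P20 and 204 at P5 (1.07 log2). This call was lost under 6 of 12 alternatives, and the other Tlr4 probe was below background.

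**Figure D4:**
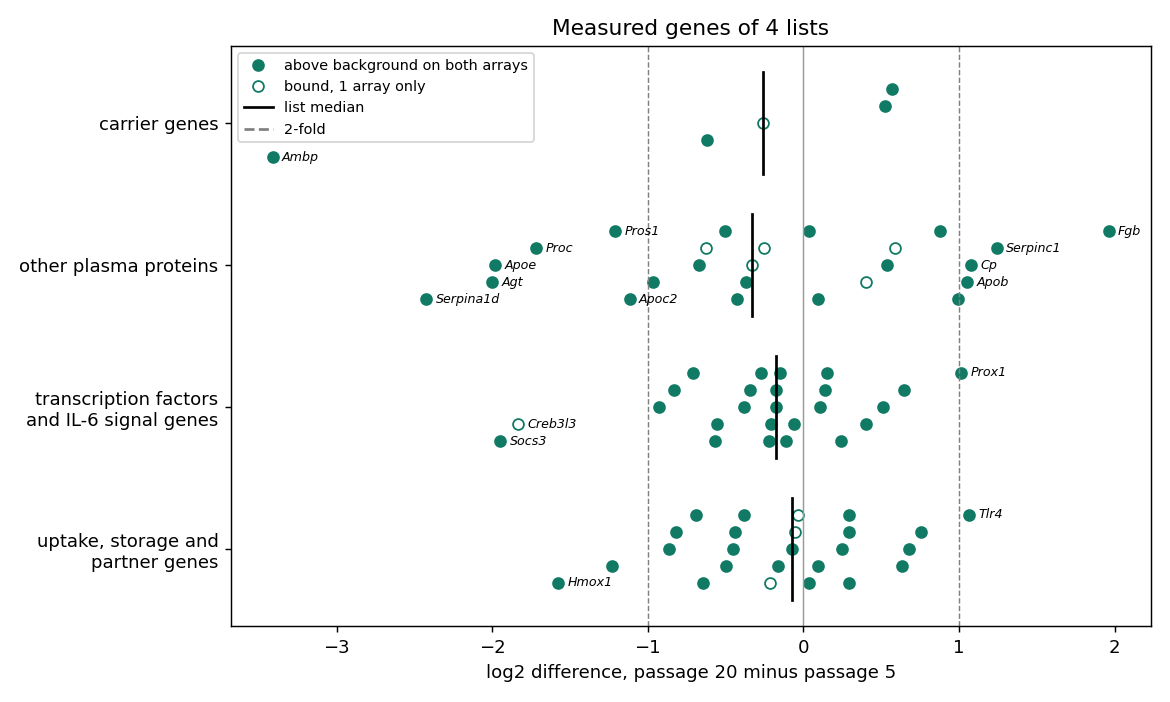
Log2 difference, P20 minus P5, of measured genes in 4 lists; each point is a gene, open points are bounds, black bars are list medians, and most genes past the dashed 2-fold lines are named. The medians lie between -0.33 (other plasma proteins) and -0.07 (partner genes), and Ambp is the lowest gene of the 4 lists. The medians of the carriers and of the other plasma proteins each fall on a bound.

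Markers set the carriers beside the labelled cell type. Of 12 hepatoblast markers, 8 were measured, including Afp, Krt8, Krt18, Hnf4a and Foxa2, while Dlk1, Igf2, H19 and Foxa1 were above background on neither array. Of the 8, 1 was at least 2-fold higher (Prox1, given above) and 2 were lower by that much. Gpc3, a fetal glypican, had 93.3 at P20 and 1141 at P5 (a bound of -3.25 log2), and Epcam, a surface adhesion protein, had 151 at P20 and 431 at P5 (-1.17 log2). Of 11 mature hepatocyte markers on the array, Ass1 was measured on both arrays and Otc at P5 only, and Cps1, Tat, Arg1 and Cyp2e1 on neither.

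Some markers of other cells were lower at P20 as well, as Ambp and the hepatoblast markers Gpc3 and Epcam were. Of 8 stellate cell and fibroblast markers 1 was measured, Dcn, with 30.8 at P20 and 1918 at P5, and with its other probe below background. The summed signal of the 8 was 262 at P20 and 2177 at P5, most of the P5 sum being that 1 probe of Dcn. Of 5 mesothelial markers 3 were measured, and Upk3b (21.0 at P20 and 523 at P5) and Wt1 (21.9 at P20 and 243 at P5) were detected at P5 only. The summed mesothelial signal was 188399 at P20 and 172490 at P5, nearly all of it Msln. Of 5 gut and pancreas markers 3 were measured: Tff3 had 89.9 at P20 and 899 at P5, and Cdx2 had 7359 at P20 and 21679.6 at P5. The third differed by -0.23 log2, under 2-fold, and made up most of the summed signal of 44678 at P20 and 77955 at P5. Of 7 cholangiocyte markers 5 were measured, and they differed in opposite directions. Spp1 (osteopontin) had 134694 at P20 and 25091 at P5, or 6.83-fold higher, while Krt19 had 121549 at P20 and 220953 at P5 (-0.52 log2). Sox9 and Krt7 were at -0.51 and -0.40 log2. The summed signal of the 7, 265365 at P20 and 261008 at P5, joins these opposite differences. None of 5 endothelial and 3 erythroid markers was measured. Of 6 macrophage and leukocyte markers 3 were measured (summed signal of the 6: 640 at P20 and 837 at P5). Cd68 had 478 at P20 and 481 at P5 (0.34 log2), and Lyz2 (122 at P5) and Csf1r (154 at P5) were detected at P5 only. Ptprc, Adgre1 and C1qa were above background on neither array. The part of any of these cells in the Ambp value was not tested.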

How the data were processed

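Amplified RNA carried Cy3 on 1-colour Agilent arrays, per the labels' protocols. Per the file headers, the authors obtained each spot's intensity, its error and a p-value against background from Feature Extraction (version 10.7.3.1), with spatial and multiplicative detrending on and the background correction switch off. A deposited log2 table correlated with log2 intensity at r = 0.99986 at P20 and 0.99987 at P5 (medians of 6.32 each); its normalization tool was not stated.

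Control spots and outlier-flagged spots (69 at P20, 73 at P5) were left out. Log2 intensities were averaged per probe (41158 probes) and scaled to each array's 75th percentile. Genes were named by accession and symbol through the RefSeq table of GRCm38.p6, and a gene took its brightest probe. Where only 1 array detected a gene, its difference is a bound, set at the higher of its own dim value and the lowest detected value of that array (-3.17 log2 at P20, -3.32 at P5). A difference of 2-fold was called; with 1 array each there is no test.

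The members and lists were chosen with earlier results of these data known. Named genes were all members, up to 4 list genes per direction with the largest differences, preset genes, measured family members and up to 3 markers per cell type; other genes were named after their values were seen. Steps were tested on simulated data. Python 3.11.15 and limma 3.58.1 were used. Alternatives were other background correction, scaling, detection, probe rules, thresholds and the authors' table; those for the partner genes were added after seeing the data. Some listed genes and a motif are not reported here.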

Additional observations from a re-analysis of the deposited data

How the results depend on the processing

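Ambp stayed at least 2-fold lower at P20 under all 12 alternatives, from -3.72 log2 with median centring to -2.60 with normexp. Rbp4 and Gc kept a positive difference under all 12 (from 0.21 and 0.26 log2) and Hpx a negative one, none of them reaching 2-fold. The Fetub bound ran from -0.57 to 0.00 log2. Scaling moved the median of all measured genes from 0.07 log2 to -0.24 with median centring and -0.14 with the spike-in probes. Measured members were 9 with the weaker detection flag and 10 with no filter on dim probes. Either setting gave 1 member higher and 3 lower, and 2 were lower at 1.5-fold. Other plasma proteins higher at P20 numbered 1 with median centring, 2 with cyclic loess, spike-in scaling or the mean over probes, 14 (and 14 lower) with the weaker flag or no filter, 7 at 1.5-fold and 0 (2 lower) at 4-fold. Transcription factors and interleukin-6 genes higher at P20 numbered 0 with normexp, quantile, median centring, cyclic loess, spike-in scaling, the percentile over detected probes, the authors' table or 4-fold, 3 with the weaker flag or no filter, and 2 at 1.5-fold. Lower ones numbered 5 with median centring or 1.5-fold, 4 with spike-in scaling, 1 with both arrays above background or the mean over probes, and 0 at 4-fold. For the partner genes, whose alternatives were chosen after seeing the data, 1 was higher and 2 lower as reported. None was higher with normexp, quantile, median centring, cyclic loess, spike-in scaling or the authors' table, and 5 were lower with median centring and 4 with spike-in scaling. The weaker flag or no filter gave 3 higher and 5 lower, 1.5-fold gave 4 and 6, and 4-fold gave 0 and 0. Of all genes, 385 were higher and 677 lower as reported, against 252 and 398 with normexp, 193 and 1127 with median centring, 1286 and 1286 with the weaker flag or no filter, 1230 and 1388 at 1.5-fold, and 59 and 161 at 4-fold. Spike-in scaling left 233 higher, and 428 were lower with both arrays above background. The cause of these shifts was not tested beyond the construction of each setting. No paired analysis was possible because each passage has 1 array. Signals near background limit Alb, Ttr, Hp, Orm1, Ahsg and Fetub.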
